A study of Mus musculus with 4 samples.

Results

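The cardiac myosins and their thick filament partners were followed in hearts of mouse embryos at embryonic day 9.5, labelled either as conditional knockouts of the Hippo scaffold Salvador or as controls. The group holds 9 genes: the heavy chains Myh6 and Myh7, the light chains Myl2, Myl3, Myl4 and Myl7, the myosin-binding protein Mybpc3 and the M-band proteins Myom1 and Myom2. They were chosen by name, as the probes to which the platform's gene table gives one of these symbols alone, and are 9 of the 16675 genes tested. They had 10 probes, since Myh7 had 2, and the probe with the highest mean over the arrays stood for each gene. The controls, labelled wild-type, and the Salv CKO hearts, in which the Salvador gene Sav1 was deleted conditionally, were whole hearts of a C57bl/6 x129 hybrid strain. Each group had 2 pools of hearts, described as biological replicates, and each pool was amplified, labelled with Cy5 and hybridised to 1 one-colour array. The sources used here do not name the Cre driver, the number of hearts per pool or the genotype of the controls beyond that label.

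Myosin II is the motor of the sarcomere. A pair of heavy chains carries essential light chains (Myl3, Myl4) and regulatory light chains (Myl2, Myl7), and the tails pack into the thick filament, along which myosin-binding protein C (Mybpc3) sits and which the myomesins (Myom1, Myom2) crosslink at the M-band. In the mouse heart Myh6 encodes the alpha heavy chain, which dominates in atria and in the adult ventricle, and Myh7 the beta heavy chain of the embryonic ventricle. Myl4 and Myl7 are the light chains of the atria and Myl2 and Myl3 those of the ventricles, although in the early heart tube their expression overlaps.

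In the Salv CKO pools 3 of the 9 genes fell (limma adjusted p under 0.05 over all genes) and 0 rose. For Myh6 the call rests on clipped control readings, whose spread its p does not measure. Mybpc3 fell 2.33-fold, Myom1 fell 2.23-fold and Myh6 fell by at least 1.59-fold when quantile normalised. The Myh6 bound depends on the scaling and was 1.41-fold with arrays divided by their 75th percentiles. Myh7 was 1.60-fold lower without passing the test (limma adjusted p = 0.0797). Myl7 and Myom2 did not pass the test, and Myl2, Myl3 and Myl4 were at the top of the scanner's range in the controls, so that a fall of them could be seen in part or not at all. Over all 16675 genes 5.7% were called lower and 4.92% higher, and 0 genes passed when any 1 array was left out, where Myh6, Mybpc3 and Myom1 had adjusted p between 0.195 and 0.275 and kept their direction, with 3 members lower at an unadjusted p under 0.05 each time; without control pool 2, Myl7 and the clipped Myl4 were higher at that level (limma unadjusted p = 0.00454 and 0.0296). The 3 calls were also lost with intensities floored at 16 or 64 (adjusted p = 0.0621 to 0.142) and without the intensity trend in limma (0.138 to 0.160). Unless another scaling is named, a difference is that of the quantile-normalised log2 intensities, Salv CKO minus control, ± the limma standard error (n = 2 pools in each group). The smallest p that exact permutation of these pools can give for a single gene is 0.333.

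The control arrays held 109 and 122 saturated probes and the Salv CKO arrays 73 and 67. Saturated means an intensity of at least 65000 before the authors' scaling factor, on a range that ended between 65440 and 65465. The Salv CKO arrays were also dimmer as a whole, with 75th percentiles as deposited of 361 and 373, against 445 and 536 in the controls. Sav1 was at log2 9.56 and 9.30 in the control pools and at 9.19 and 9.13 in Salv CKO (-0.27 ± 0.13, limma adjusted p = 0.266), and the sources used here do not place its probe relative to the deleted part. As deposited, the median difference over genes above background on all arrays was -0.44, against -0.04 when quantile normalised, -0.17 when arrays were centred on their medians and -0.03 when divided by their 75th percentiles. Of the genes called, 46.3% were higher after quantile normalisation, 6.88% as deposited, 22.8% after centring and 40.6% with the 75th percentile. Where a scaling turns the direction of a member below, it is named. Genes of the other lists were followed under other scalings only as counts and medians, not singly.

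Saturation decides what can be read from these genes. Before scaling, the probes of Myh6, Myl2 and Myl3 were saturated on both control arrays and on no Salv CKO array. Myl4 was saturated on all 4 arrays, and the other 5 genes on none. Of the 53 genes that were saturated on both controls, 37.7% were saturated on no Salv CKO array, against 3 of these 4.

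**Figure D1:**
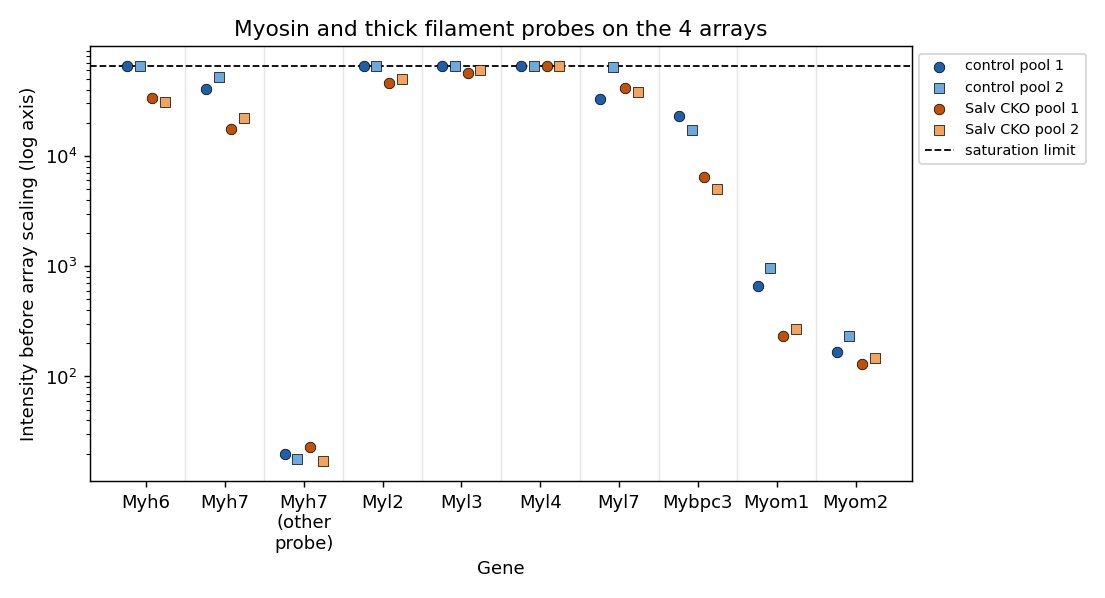
Intensity of each probe before the authors' array factor (log axis, no unit), for the 2 control and 2 Salv CKO pools; every point is 1 array and the dashed line is the saturation limit of 65000. Myh6, Myl2 and Myl3 sit on the line in both controls and below it in Salv CKO, Myl4 sits on it in all 4 pools, and Mybpc3 and Myom1 are lower in both Salv CKO pools.

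The promoters of the 3 genes that fell are shown beside those of Myh7 and Myl7, which did not pass the test. Neither was shown to be unchanged, and Myh7 was at -0.68. Myh6 was at -0.67 on clipped controls, which is a bound, so the sizes of their falls cannot be compared. The sets are therefore no contrast of changed and unchanged genes. The sequences are from RefSeq (build GRCm38.p6), which gave 10 windows for 8 of the 9 genes, and each line is the 250 bases before the annotated start on the gene's strand. They lie at chr14:54966608-54966857, minus strand (Myh6), chr14:54994627-54994876, minus strand (Myh7, the first of its pair of windows), chr2:91117894-91118143, plus strand (Mybpc3), chr17:71019307-71019556, plus strand (Myom1) and chr11:5898783-5899032, minus strand (Myl7). Capitals mark every match on either strand to the motifs searched: CATTCC, the M-CAT core bound by the Tead factors through which Yap acts; AGATAA and TGATAA, of Gata factors; the Mef2 box, CTA and TAG around any 4 letters; TNAAGTG, of Nkx2-5 type; the CArG box of Srf; and TATAAA.
Myh6: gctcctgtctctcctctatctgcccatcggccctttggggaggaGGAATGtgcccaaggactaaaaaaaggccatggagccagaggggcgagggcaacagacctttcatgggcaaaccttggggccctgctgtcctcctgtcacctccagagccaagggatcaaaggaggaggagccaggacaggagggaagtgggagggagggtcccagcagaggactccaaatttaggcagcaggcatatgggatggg
Myh7: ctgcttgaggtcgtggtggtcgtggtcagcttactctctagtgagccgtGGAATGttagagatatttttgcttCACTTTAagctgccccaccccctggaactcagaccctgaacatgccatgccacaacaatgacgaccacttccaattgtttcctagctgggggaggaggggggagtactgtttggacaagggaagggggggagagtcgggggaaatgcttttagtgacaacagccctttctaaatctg
Mybpc3: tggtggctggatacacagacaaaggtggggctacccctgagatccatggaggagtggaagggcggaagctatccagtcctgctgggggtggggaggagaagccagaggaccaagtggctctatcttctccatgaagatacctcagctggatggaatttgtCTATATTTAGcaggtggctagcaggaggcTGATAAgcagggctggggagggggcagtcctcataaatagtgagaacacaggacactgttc
Myom1: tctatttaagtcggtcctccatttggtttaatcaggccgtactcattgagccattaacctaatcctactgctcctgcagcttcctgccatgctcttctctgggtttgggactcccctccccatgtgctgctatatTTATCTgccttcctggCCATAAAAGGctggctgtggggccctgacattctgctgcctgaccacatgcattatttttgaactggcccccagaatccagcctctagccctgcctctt
Myl7: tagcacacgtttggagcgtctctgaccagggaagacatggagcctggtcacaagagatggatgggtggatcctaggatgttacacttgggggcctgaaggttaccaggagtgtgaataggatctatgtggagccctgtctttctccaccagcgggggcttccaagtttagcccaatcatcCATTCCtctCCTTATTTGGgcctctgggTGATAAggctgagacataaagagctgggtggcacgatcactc
The M-CAT core stood in 4 of the 10 windows, those of Myh6, Myh7, Myl3 and Myl7, and in 12.6% of the 32851 promoter windows of the table. It began 206 bases before the start of Myh6, 201 before that of Myh7 and 70 before that of Myl7. The windows of Mybpc3 and Myom1 did not hold it in these letters. Whether the motif has a part in the falls was not tested. A CArG box was in 3 of the 10 windows (Myl3, Myl7 and Myom1), against 1.47% of all windows. The window of Mybpc3 held the Mef2 box, which 3.2% of all windows hold. TGATAA stood in 2 of the 10 windows, 61 bases before the start of Mybpc3 and 42 before that of Myl7, and in 7.94% of all. AGATAA stood in 2 of the 10 windows and in 9.99% of all, TNAAGTG in 1 and 10.1%, and TATAAA in 1 and 12.4%. These matches describe letters in one window per start and show no binding.

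Of the heavy chains, Myh6 fell and Myh7 did not pass the test. The Myh6 probe read 65427 and 65434 in the control pools, at saturation, and 33867 and 31039 in the Salv CKO pools before scaling, which is 51.7% and 47.4% of the top of the range. The groups stood apart, and the control level was at or above what the scanner could record. After quantile normalisation Myh6 was at log2 15.95 and 15.89 in the controls and 15.31 and 15.19 in Salv CKO, a difference of -0.67 ± 0.07 (limma adjusted p = 0.0121). Both control readings were clipped, so this standard error and p do not measure the spread between the control pools. With the control at its clipped value this gives at least 1.59-fold lower, and the bound was 1.88-fold as deposited, 1.56-fold with centring and 1.41-fold with the 75th percentile.

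Myh7, on its bright probe (mMR030049), was never saturated. It read 40139 and 52576 in the controls and 17442 and 22075 in Salv CKO before scaling, and log2 15.03 and 15.32 against 14.28 and 14.71 after quantile normalisation. Each Salv CKO pool was below each control pool, but the pools of a group were 0.29 and 0.43 apart, and the difference of -0.68 ± 0.18 did not pass (limma adjusted p = 0.0797). Among the alternatives under which it passed were the values as deposited (-1.13, adjusted p = 0.0186), centring (-0.86, adjusted p = 0.0141), the 75th percentile (-0.71, adjusted p = 0.0452) and a test of only the genes above background on all arrays (adjusted p = 0.0215). The other Myh7 probe (mMC007640) read 17 to 23 on all arrays, close to the background limit of 16, and gave 0.40 ± 0.52 with no call (adjusted p = 0.691 over all probes). As the mean of both probes Myh7 was at -0.14 (limma adjusted p = 0.442). The alpha and beta heavy chains are products of near-identical neighbouring genes, and how far each probe also binds the other's RNA was not analysed here.

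Set against each other on the same arrays, Myh7 changed by -0.01 relative to Myh6 (-0.28 in Salv CKO pool 1 and 0.26 in pool 2, each against the control mean). The pools disagreed in sign, and since Myh6 was clipped in the controls this value hides any further fall of Myh6. No shift between the alpha and beta chains could therefore be read in either direction (exact two-sided permutation p = 1).

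The ventricular light chains were at the ceiling in both controls and below it in both Salv CKO pools. The regulatory light chain Myl2 read 65425 and 65430 in the controls and 46415 and 49963 in Salv CKO before scaling. The Salv CKO pools were at 70.9% and 76.3% of the top of the range, clearly off saturation. After quantile normalisation, which ranks the clipped control values among other clipped probes, they were at log2 15.95 and 15.79 against 15.69 and 15.79, a difference of -0.13 ± 0.08 with no call (limma adjusted p = 0.399). The bound was at least 1.096-fold lower, 1.27-fold as deposited and 1.05-fold with centring, and no fold with the 75th percentile, where the sign turned (0.07).

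The essential light chain Myl3 read 65397 and 65440 in the controls and 56904 and 60583 in Salv CKO before scaling. Its Salv CKO pools reached 86.9% and 92.5% of the range, just below the ceiling. The normalised values, log2 15.75 and 15.95 against 15.83 and 15.91, overlapped (0.02 ± 0.09, limma adjusted p = 0.916). Only as deposited did Myl3 give a bound, of at least 1.04-fold lower, and with centring and the 75th percentile the clipped controls lay below Salv CKO (0.22 and 0.36), so no fold is given.

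Of the atrial light chains, the essential chain Myl4 could not be compared. It read 65396 and 65439 in the controls and 65449 and 65451 in Salv CKO, saturated in all pools, so any difference between the groups was beyond the range of these arrays. Its fitted values (0.10 ± 0.09, adjusted p = 0.531, and a call of 0.51 higher with the 75th percentile, adjusted p = 0.0276) come from clipped intensities and are no measure of Myl4.

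The regulatory chain Myl7 read 32836 in control pool 1, 64297 in control pool 2, and 41164 and 38320 in the Salv CKO pools before scaling. Control pool 2 was at 98.2% of the range, just under the limit, while control pool 1 lay below both Salv CKO pools. The groups thus overlapped, with the controls on either side of Salv CKO. The difference was 0.35 ± 0.30 (limma adjusted p = 0.524), with a 95% interval from -0.42 to 1.12 that holds falls and rises alike. Without control pool 1 it was -0.10, without control pool 2 it was 0.80, and as deposited it was -0.11. Myl7 is the least certain of the members that were saturated on no array.

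Relative to Myl7, Myl2 changed by -0.56 in Salv CKO pool 1 and by -0.40 in pool 2, each against the control mean, with a mean of -0.48 and a pooled SD of 0.54 between pools (exact two-sided permutation p = 0.667). The control pools of Myl7 were 0.91 apart, and Myl2 was clipped in both controls, so the value hides any further fall of Myl2. It was -1.10 without control pool 2. For Myl3 relative to Myl4 the value was -0.08 ± 0.04 (pooled SD) with both clipped in the controls, which is no measure of either gene.

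Mybpc3, which regulates cross-bridge cycling along the thick filament, fell and was saturated on no array. It read 23158 and 17254 in the controls and 6413 and 5012 in Salv CKO before scaling, well inside the range on each array. After quantile normalisation the values were log2 14.24 and 13.71 against 12.89 and 12.61, so the lower control was still 0.81 above the higher Salv CKO pool. The difference was -1.22 ± 0.20 (limma adjusted p = 0.0285), and it lay between -1.72 and -0.96 under the 14 alternatives run for it, with 7 calls among them.

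Among the M-band proteins Myom1 fell and Myom2 did not pass the test. Myom1, whose splice form in the embryonic heart is known as EH-myomesin, read 665 and 972 in the controls and 234 and 270 in Salv CKO before scaling. Its log2 values were 9.13 and 9.56 against 8.08 and 8.30, with no overlap, and it fell by 1.16 ± 0.19 (limma adjusted p = 0.0276). Over the 14 alternatives the difference ranged from -1.58 to -0.94, with 7 calls. Myom2, the M-protein, read 166 and 234 in the controls and 130 and 146 in Salv CKO. Its log2 values of 7.22 and 7.51 against 7.21 and 7.38 overlapped, and the difference of -0.07 ± 0.20 did not pass (adjusted p = 0.863, 95% interval -0.59 to 0.45).

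Myom2 relative to Myom1 was higher by 1.11 in Salv CKO pool 1 and 1.06 in pool 2, against a pooled SD of 0.07. The mean of 1.09 is larger than the spread between pools, with both Salv CKO pools above both controls, although the exact two-sided permutation p of 0.333 is the smallest these pools can give. As a difference taken within arrays it cannot change with a factor per array. The value of 1.16 under each of the 3 linear scalings is therefore the same by construction and is no check. Quantile normalisation can change it, and gave the 1.09. All of these readings were above the background limit of 16.

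**Figure D2:**
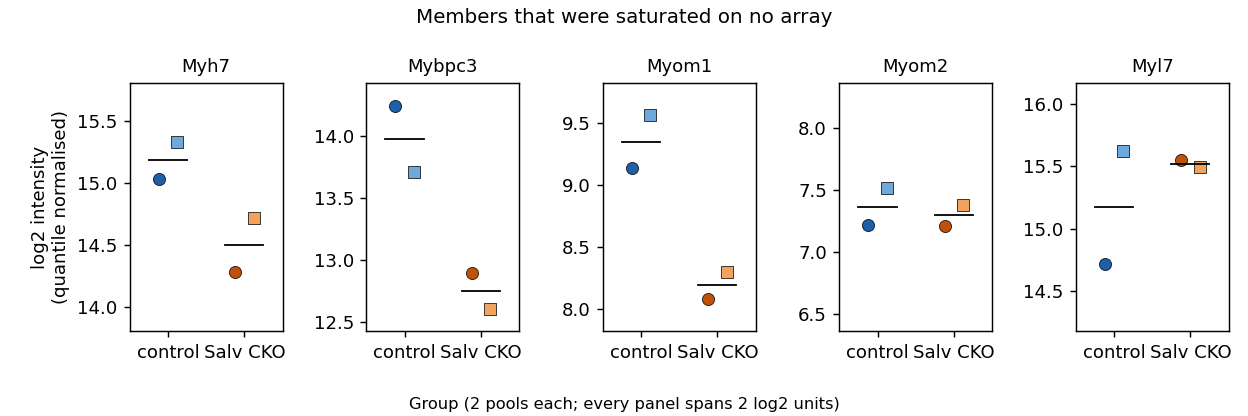
Quantile-normalised log2 intensity of the 5 members that were saturated on no array, by group; each point is 1 pool (blue control, orange Salv CKO, circles pool 1 and squares pool 2), the bar is the mean of the 2 pools, and every panel has the same height in log2 units. Mybpc3 and Myom1 stand apart between the groups by more than the pools of a group differ, Myom2 overlaps, and the Myl7 controls lie on either side of the Salv CKO pools.

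As a list, the 9 genes had a median difference of -0.13, against -0.04 over all genes tested, and the 5 genes that were saturated on no array had a median of -0.68. In 5 of the 9 each Salv CKO pool was below each control pool, where 29% of all genes did so. These were Myh6, Myh7, Mybpc3, Myom1 and, by 0.0021 log2 on clipped controls, Myl2. The median of the 9 was -0.41 as deposited and -0.0026 with the 75th percentile, so it followed the scaling, while the differences of Myh6, Myh7, Mybpc3 and Myom1 stayed below 0 under each alternative. In whole hearts fewer heart muscle cells and less RNA per cell cannot be told apart.

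**Figure D3:**
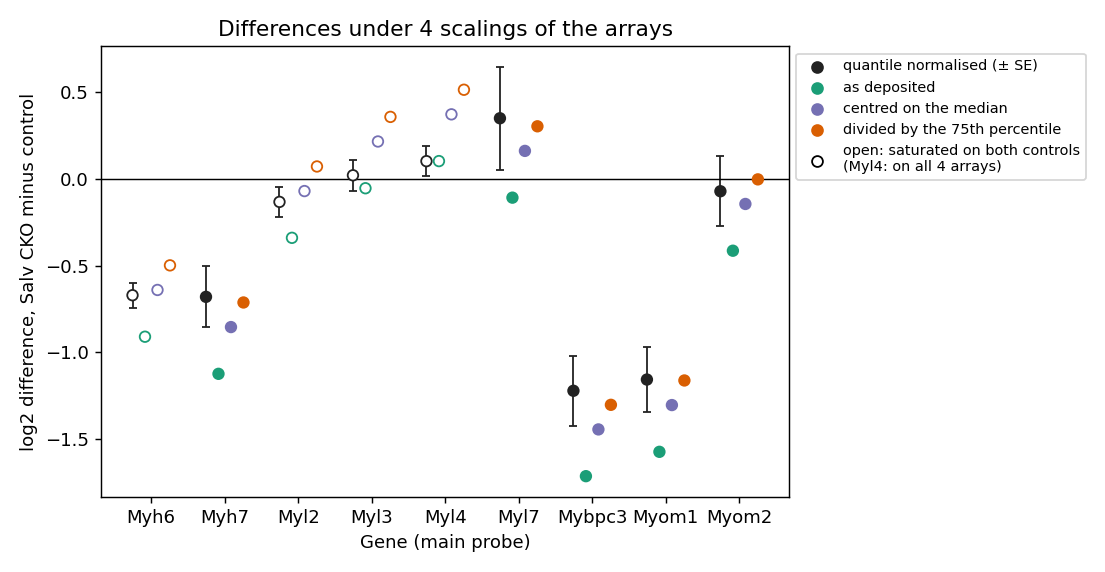
Difference in log2 intensity, Salv CKO minus control, of the main probe of each member under 4 scalings of the arrays; bars are the limma standard error of the quantile-normalised value (n = 2 pools per group), and open points belong to probes saturated on both controls. Myh6, Myh7, Mybpc3 and Myom1 lie below 0 under all 4, and Myl2, Myl3 and Myl7 change sign with the scaling.

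A list of 42 other genes held myosin II chains, myosin-binding and M-band proteins, their kinases and chaperones, and some other proteins. It includes non-muscle chains and is called the thick filament list below. Of its genes 37 had a probe, of which 10 fell and 1 rose, with a median of -0.43. The 31 above background on all arrays had a median of -0.30. Titin (Ttn), the elastic filament from Z-disc to M-band, fell by 1.41 ± 0.09, Unc45b, the myosin chaperone of striated muscle, by 1.20 ± 0.21, and Hspb7, a small heat shock protein of the heart, by 1.08 ± 0.10 (limma adjusted p = 0.00661, 0.0314 and 0.0102). Smyd1, a methyltransferase that works with the myosin chaperones in sarcomere assembly, fell by 0.89 ± 0.12, Obsl1, an M-band binding partner of titin and myomesin, by 0.96 ± 0.14 and Mybphl, a relative of myosin-binding protein C, by 0.59 ± 0.12 (adjusted p = 0.0175, 0.0220 and 0.0423). The M-band and microtubule-binding ligase Trim54 fell by 0.72 ± 0.09 and the small muscle protein Smpx by 0.70 ± 0.14 (adjusted p = 0.0157 and 0.0414). Members of this list past the first 3 in each direction were named after their values were seen. Myom3, the third myomesin, was at -0.05 ± 0.15 (adjusted p = 0.881). The general chaperone Unc45a was at 0.28 ± 0.10 (adjusted p = 0.144).

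Among the skeletal heavy chains Myh3, the embryonic form, rose by 1.40 ± 0.24 (limma adjusted p = 0.0319), from log2 6.03 and 6.14 to 7.68 and 7.28. The perinatal form Myh8 was at 0.22 ± 0.08 (adjusted p = 0.181) and Myh1 at 0.50 ± 0.32 (adjusted p = 0.400), and Myh2 and Myh4 were not above background on any array. Mylpf, the fast skeletal regulatory light chain, fell by 0.88 ± 0.06 (adjusted p = 0.00726), from log2 13.16 and 13.20 to 12.28 and 12.33. Skeletal myosin chains thus moved both ways on the same arrays. Of the non-muscle heavy chains Myh10 fell by 0.38 ± 0.08 (adjusted p = 0.0447), Myh9 was at -0.48 ± 0.10 (adjusted p = 0.0525), and Myh14 was above background on 1 of the 4 arrays. The smooth muscle heavy chain Myh11 was at -0.12 ± 0.14 (adjusted p = 0.646), and the smooth muscle light chain Myl9 was saturated on all 4 arrays.

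In the thin filament and Z-disc list 11 of 27 genes fell and 1 rose, with a median of -0.46. Of the 27, 24 were above background on all arrays, as were 12402 of all 16675 genes, so that count does not identify the tissue. The medians of both muscle lists stayed below 0 under every alternative, between -0.71 and -0.11 for the thick filament and between -0.96 and -0.45 for the thin filament list. The muscle filamin Flnc fell by 1.79 ± 0.14, Xirp1 by 1.69 ± 0.08 and telethonin (Tcap) by 1.35 ± 0.07, and the tropomyosin Tpm1 rose by 1.39 ± 0.11 (limma adjusted p = 0.00781, 0.00615, 0.00640 and 0.00829). Of the 64 genes of the muscle lists, the 3 whose centred values over the 4 arrays lay nearest to the median profile of the members were Myl1, Myh10 and the light chain Myl12a (listed as 2900073G15Rik), at root mean square distances of 0.08, 0.09 and 0.10 log2. That median profile is shallow, at 0.15 and 0.28 in the controls and -0.12 and -0.02 in Salv CKO, and genes that hardly differ lie near it.

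Markers of other cells moved on the same arrays. The summed intensity of the thin filament and Z-disc list was 424598 to 432362 in the controls and 326697 to 327179 in Salv CKO. It holds 3 genes saturated on at least 1 array (Actc1, Acta2 and Actn2), and without them it was 242323 to 246972 and 145551 to 145724. Of 10 endothelial genes 5 fell and 1 rose, and their sum went from 23754 to 24591 in the controls to 14229 to 14699 in Salv CKO. Of 8 red cell genes 3 fell and 0 rose (sums of 136387 to 137784 and 112200 to 112593), with Hba-x saturated on 3 arrays (73106 to 75987 and 48927 to 51412 without it) and Epb4.2 below background on all arrays. In the other direction, 6 of 15 neural genes rose (8272 to 9723 against 16888 to 17034), as did 5 of 11 neural crest genes (19023 to 19372 against 57031 to 57252), 3 of 9 somite genes (611 to 649 against 3872 to 3881) and 4 of 12 endoderm genes (3681 to 4132 against 9131 to 9187), with 0 that fell in each. These sums are of linear intensities and rest mostly on the brightest genes. Crabp1 weighed most in the crest sum (mean log2 13.71 in the controls and 15.53 in Salv CKO), and Tcf15 in the somite sum (8.49 and 11.57). The median log2 differences of all genes with a probe were 0.58 (neural), 1.82 (crest), 1.64 (somite) and 1.11 (endoderm). Over only the genes above background on all arrays they were 0.57, 0.95, 1.78 and 1.11. Foxd3 and Dlx5 of the crest list and Myf5 of the somite list were below background on all arrays. What part these shifts have in the lower myosin values was not tested.

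**Figure D4:**
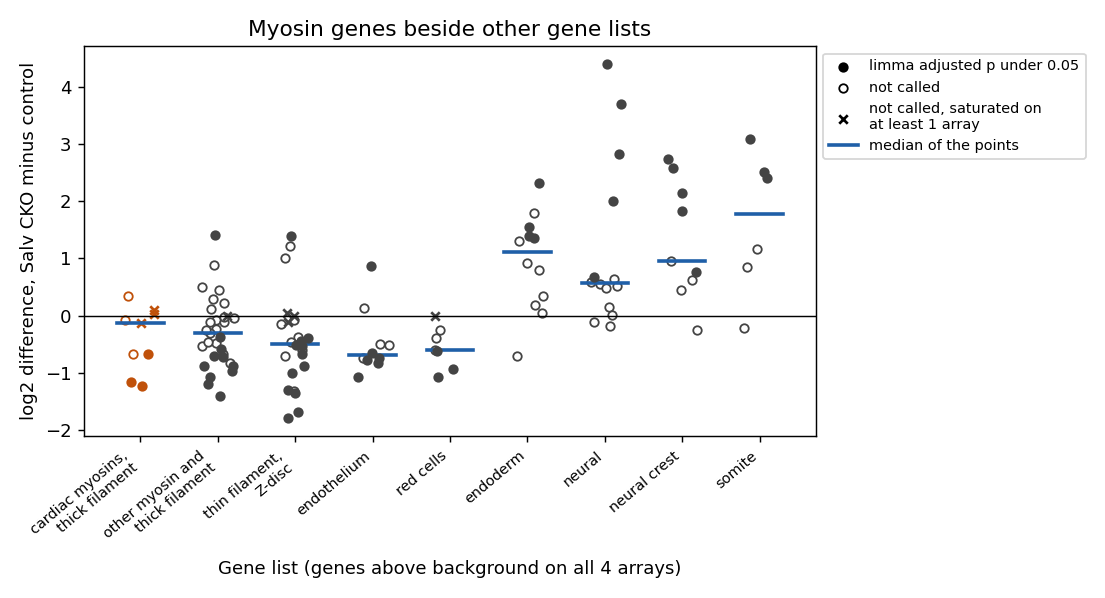
Difference in log2 intensity, Salv CKO minus control, of each gene above background on all 4 arrays, by list; filled points passed limma at an adjusted p of 0.05, crosses did not pass and were saturated on at least 1 array, and blue lines are medians. The medians of these points are -0.13 for the members, -0.30 for other thick filament genes and -0.49 for thin filament and Z-disc genes, and lie between 0.57 and 1.78 for the endoderm, neural, neural crest and somite lists.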

How the data were processed

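The deposited table holds 1 intensity per probe on a linear scale for 29922 probes on 4 arrays. Per the labels, RNA was column-extracted, amplified with amino-allyl nucleotides and coupled to Cy5; for the scanner, background method, scaling and software the upstream steps are not stated. The values showed background subtraction (3.37 to 5.99% below 0 per array) and 1 factor per array, of which all values were whole multiples within 0.02. Dividing by it gave the intensities before scaling. The platform's gene table (2013) gave 1 symbol for 21020 probes, several for 0 and none for 8902.

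All probes were quantile normalised, floored at 1 and put on the log2 scale, and the brightest probe per gene was tested with limma 3.58.1 in R 4.3.3 (eBayes with intensity trend, two-sided, Benjamini-Hochberg over 16675 genes). Above background means over 16, and saturated at least 65000 before scaling. "At least" folds set the mean of clipped values against the other group's mean. Members and lists were chosen with earlier results of these data known. Named are all members and, per muscle list, up to 3 called genes per direction above background on all arrays, plus genes marked as exceptions and the 3 nearest profiles. The p-values measure the spread between these pools only, and the number of arrays limits precision. For probes clipped in a group they do not measure the spread of that group. In 10 simulations of this comparison on 16675 genes, 200 genes were changed, none of them among the dimmest. Of these, 30.2% of genes changed 2-fold and 60.6% changed 4-fold were recovered, with 5.22% of calls false. The data gave more calls (951 lower and 821 higher), so recovery in them can differ. Alternatives covered scaling, floor, filter, spread model, probe rule, left-out arrays, a replicate block and saturated members.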

Additional observations from a re-analysis of the deposited data

How the results depend on the processing

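The count of 3 members called lower was 4 with the values as deposited, with median centring, with the 75th percentile, with genes above background only and with the replicate block, and 2 with saturated members left out. It was 0 with a floor of 16 or 64, without the intensity trend (limma, 3 members lower at an unadjusted p under 0.05 in each) and without any 1 array (again 3). The count called higher was 0 except 1 with the 75th percentile, the clipped Myl4. The members' median was -0.41 as deposited, -0.0026 with the 75th percentile, -0.68 without saturated members, and -0.29 to -0.064 with 1 array left out.

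Of the other thick filament genes 2 were called lower with either floor and 0 without the trend or without any 1 array (10 to 15 at an unadjusted p under 0.05); 0 were higher under these and as deposited (1 to 5 unadjusted), and 2 with the 75th percentile. Of the thin filament and Z-disc genes 5 and 6 were lower with floors of 16 and 64, and 0 without the trend or any 1 array (11 to 15 unadjusted); 0 were higher under these (1 to 3 unadjusted), 3 with centring, with genes above background only and with the replicate block, and 4 with the 75th percentile. Under the 3 linear scalings, Myom2 relative to Myom1 was at 1.16 and Myl3 relative to Myl4 at -0.16. With 1 array left out the relative values were 1.02 to 1.14 for Myom2 and Myom1, -0.12 to -0.04 for Myl3 and Myl4, -0.36 to 0.29 for Myh7 and Myh6 and -1.10 to 0.039 for Myl2 and Myl7. The cause of these changes was not tested.

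The replicate numbers in the titles pair nothing by description; deviations of same-numbered arrays correlated at 0.17 over the 12402 genes above background. With the replicate block Myh7 passed (-0.68, limma adjusted p = 0.0159), and no other member's call changed. Saturation limits Myh6, Myl2, Myl3 and Myl4.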
